A study of Homo sapiens with 15 samples.

Results

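The comparison described here sets 3 libraries of a group named SG1 against 3 libraries of a group named SG3, 6 of the 15 libraries in the series, across all expressed genes. The libraries were taken by the group names in the sample titles, and the pair of groups was proposed because their remaining KIF20A was already known to differ. All are RNA-seq libraries of MDA-MB231, an established line of human triple-negative breast cancer cells, grown in DMEM with serum, with no further treatment named. Both SG1 and SG3 carry the genotype label of a KIF20A knockdown, and the labels give no agent, clone or sequence that would tell one from the other. Beside them, 3 CTRL libraries with a wild-type label are shown as the reference level. The comparison asks how far 2 groups with the same knockdown label differed from each other. The labels do not state whether the libraries of a group are separate cultures, and the p-values therefore rest on a spread between libraries that may be technical.

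KIF20A, KIF20B and KIF23 make up the kinesin-6 family, motor proteins that move along microtubules and act late in cell division. KIF23 forms the centralspindlin complex that bundles microtubules between separating chromosomes, KIF20A brings the chromosomal passenger complex and PLK1 to that central spindle, and KIF20B acts at the midbody in the final cut between daughter cells. Genes of mitosis are transcribed late in the cell cycle, many of them from promoters that hold CCAAT boxes, bound by NF-Y, and a cell cycle genes homology region (CHR), bound by the DREAM and MuvB complexes.

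Library totals lay between 40.9 and 51 M counts (M for 1000000) over the 9 libraries, and 16786 of the 60651 genes in the table passed the expression filter. Levels are given as CPM, counts per M counts, on TMM library sizes. Between replicates of SG1 or of SG3 the counts had a chi-square per degree of freedom of 11.7 to 130, well above sampling noise, and no library repeated another. SG3 replicate 1 stood apart from SG3 replicates 2 and 3: correlations of log2 levels within SG3 ran from 0.9865 to 0.9961, against 0.9903 to 0.9932 within SG1 and 0.9887 to 0.9927 between SG1 and SG3 libraries. Some values below are therefore also given without SG3 replicate 1. Without it 24.2% of all genes were higher and 21% lower in SG1 with no overlap of the remaining libraries. The cell line's own markers were high, with VIM at 536 to 816 CPM and CD44 at 1111 to 1712 CPM over the 9 libraries. Among markers of luminal epithelium and of leukocytes, ESR1 and PTPRC had at most 4 and 6 counts in any library. Other members of these lists were expressed, such as KRT8 at 476 to 868 CPM and CSF1R at up to 14.2 CPM, and the lists are described below.

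Promoters of mitotic genes shared sequence features. The promoters of 5 genes are shown because these genes lay higher in every SG1 than in every SG3 library and because the 120 bases before their start sites hold no annotated exon. Capitals mark the CCAAT box on either strand, and the CHR, searched as TTTGAA on either strand and in its palindromic variant TTCGAA. The sequences are the plus-strand or minus-strand letters of RefSeq on GRCh38.p14, 5′ to 3′ in the direction of the gene.
KIF20B, chr10:89701470-89701589, plus strand: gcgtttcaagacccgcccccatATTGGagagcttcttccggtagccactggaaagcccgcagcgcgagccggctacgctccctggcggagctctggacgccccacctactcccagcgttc
CENPF, chr1:214603075-214603194, plus strand: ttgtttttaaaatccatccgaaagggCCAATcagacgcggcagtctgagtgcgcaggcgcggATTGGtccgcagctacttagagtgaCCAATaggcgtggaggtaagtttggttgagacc
CEP55, chr10:93496492-93496611, plus strand: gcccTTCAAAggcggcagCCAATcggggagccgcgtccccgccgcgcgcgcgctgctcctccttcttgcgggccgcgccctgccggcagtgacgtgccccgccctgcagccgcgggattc
CDK1, chr10:60778211-60778330, plus strand: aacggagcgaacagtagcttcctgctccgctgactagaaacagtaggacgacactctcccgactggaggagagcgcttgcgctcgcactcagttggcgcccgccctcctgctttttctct
KIF14, chr1:200620752-200620871, minus strand: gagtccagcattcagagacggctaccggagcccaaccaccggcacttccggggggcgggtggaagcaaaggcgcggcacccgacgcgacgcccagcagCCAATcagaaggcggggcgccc
The 3 CCAAT boxes of CENPF, a kinetochore protein, begin 94, 58 and 33 bases before the start site. The printed window of CDK1, the kinase that drives mitotic entry, holds neither motif, and 1 CCAAT box begins 150 bases before its start site.

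Over 250 bases before the start site, 53 of the 75 mitotic genes with a promoter in the RefSeq table held a CCAAT box on either strand (70.7%), against 32% of all 35116 promoters in that table and 34.8% of those of tested coding genes. A CHR form was present in 38 (50.7%), against 14.3% of all promoters and 9.65% of those of tested coding genes. These motifs are short, the forms can overlap, and a match describes letters only.

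All 3 kinesin-6 genes were higher in each SG1 library than in any SG3 library, while only KIF20A lay below its CTRL level in both groups. KIF20A (ENSG00000112984.12, chromosome 5, 138178719 to 138187715 in GRCh38, plus strand) was measured at 123, 147 and 91.5 CPM in SG1, at 86.3, 60.8 and 79.1 CPM in SG3 and at 154, 171 and 160 CPM in CTRL. The 3 groups did not overlap, and the order was CTRL, SG1, SG3, although the lowest SG1 library lay close above the highest SG3 library. Means were 121 ± 27.9 CPM in SG1 and 75.4 ± 13.1 CPM in SG3 (SD, n = 3 each), or 74.6% and 46.6% of the CTRL mean. Because the groups were set against each other for their remaining KIF20A, its difference is a description, and the p-values printed with it give no independent support. The difference was 0.68 ± 0.18 on the log2 scale (SE, 95% interval 0.30 to 1.06), and it did not pass the threshold over all genes (edgeR quasi-likelihood, unadjusted p = 0.00167, Benjamini-Hochberg adjusted p = 0.861). An exact two-sided permutation test over the 6 libraries gave p = 0.1, the smallest that 3 against 3 can give. The adjusted p was 0.0261 in edgeR without a low-count filter and 0.0161 in limma-voom with library quality weights, under the same limit.

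KIF23 (chromosome 15, 69414246 to 69448427, plus strand) was at 275, 301 and 242 CPM in SG1, 186, 167 and 177 CPM in SG3 and 196, 184 and 254 CPM in CTRL. Its SG1 and SG3 libraries were separate, and CTRL replicate 3 reached into the SG1 range. KIF20B (chromosome 10, 89701610 to 89774939, plus strand), whose promoter is printed above, was at 242, 273 and 228 CPM in SG1, 208, 145 and 164 CPM in SG3 and 155, 163 and 221 CPM in CTRL. The log2 differences between SG1 and SG3 were 0.63 ± 0.15 for KIF23 and 0.52 ± 0.17 for KIF20B (SE; edgeR adjusted p = 0.861 each, unadjusted 0.000847 and 0.00811). Relative to CTRL means, KIF23 stood at 129% in SG1 and 83.7% in SG3, and KIF20B at 138% and 95.8%.

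**Figure D1:**
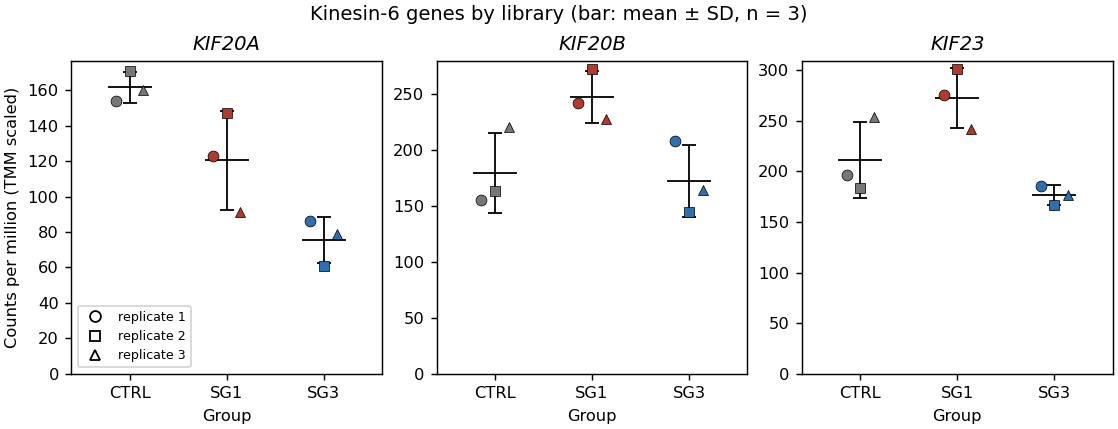
CPM of KIF20A, KIF20B and KIF23 (vertical axis from 0) in each of the 3 CTRL, 3 SG1 and 3 SG3 libraries, with the mean and SD as bars. In all 3 panels every SG1 point lies above every SG3 point, and only for KIF20A do all CTRL points, at 154 to 171 CPM, lie above both groups.

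Because other mitotic genes were also higher in SG1, KIF20A was set against them within each library. Its log2 level minus the mean log2 level of 4 mitotic gene lists was -0.09, 0.07 and -0.32 in SG1 and -0.26, -0.77 and -0.45 in SG3, against 0.54, 0.68 and 0.38 in CTRL. SG1 and SG3 overlapped on this measure, with a mean difference of 0.377 (exact two-sided permutation p = 0.2, n = 3 each), whereas every CTRL library lay above all 6 others. The measure was chosen after values of these libraries had been seen.

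Mitotic genes as a group lay higher in SG1 than in SG3 by small amounts. Of 84 genes in 4 lists 83 were tested, 78 had a positive log2 difference, the median was 0.305, and 34 (41%) were higher in every SG1 than in every SG3 library while 0 were lower without overlap. Over all tested genes 51.9% were positive, the median was 0.0126, and 6.26% were higher and 4.55% lower without overlap. These shares are the background for counts without overlap in every list when no library is left out. None of the 83 passed edgeR's test over all genes, where 0 of 16786 did (0%), and 32 were higher at an unadjusted p under 0.05, against 1.73% of all genes higher and 3.01% lower at that level. In bulk libraries, fewer cells in mitosis and less RNA per cell cannot be told apart. The libraries' scores, the median over the lists of log2 levels centred on each gene's mean, were 0.214, 0.294 and -0.00326 in SG1, -0.125, -0.177 and -0.103 in SG3, and -0.162, -0.12 and 0.134 in CTRL. SG1 and SG3 were separate on the score, with SG1 replicate 3 closest to SG3, and CTRL spanned the gap between them. Without SG1 replicate 2, which had the highest score, the median difference was 0.20. It was 0.289 without SG3 replicate 1, with 48 members higher and 5 lower without overlap, against 24.2% and 21% of all genes.

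Kinetochore and spindle checkpoint genes, which tie chromosomes to microtubules and delay anaphase until all are attached, were positive in 21 of 24 cases (median 0.343). Of these genes 13 were higher without overlap (54.2%, against 6.26% of all genes). NUF2, a subunit of the NDC80 complex that grips microtubules, was at 112, 109 and 91.7 CPM in SG1 and 72.3, 66 and 70.2 CPM in SG3, against 69.9, 71.5 and 105 CPM in CTRL. Its log2 difference was 0.59 ± 0.16 (SE; edgeR adjusted p = 0.861). CENPF was at 626, 706 and 508 CPM in SG1 and 464, 412 and 443 CPM in SG3, against 441 to 486 CPM in CTRL. TTK, the checkpoint kinase also called MPS1, SGO2, a protector of centromere cohesion, and NDC80 itself had log2 differences of 0.51, 0.49 and 0.40, also without overlap. SPC24, ZWINT and CENPA were the members at or under 0, at -0.16, -0.10 and -0.0035.

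Spindle and centrosome genes were positive in 20 of 21 cases (median 0.373), 11 without overlap (52.4%, against 6.26% of all genes). ASPM, a spindle pole protein, was at 306, 394 and 285 CPM in SG1 and 246, 208 and 225 CPM in SG3, against 224 to 245 CPM in CTRL. KIF18A, a kinesin that shortens kinetochore microtubules, was at 94, 118 and 80.9 CPM in SG1 and 64.5, 59.6 and 64.9 CPM in SG3, and its log2 difference was 0.63 ± 0.18 (SE). CTRL replicate 3, at 95.1 CPM, lay inside the SG1 range for KIF18A, and the other CTRL libraries, at 58.2 and 66.9 CPM, lay near SG3. KIF11, the bipolar spindle motor Eg5, KIF14, a midzone motor, and PLK4, the kinase of centriole duplication, had log2 differences of 0.39, 0.36 and 0.40 without overlap, and the condensin subunits SMC4 and NCAPG had 0.47 and 0.34. NUSAP1 had the widest difference of the list, 0.77, at a level under 1 CPM in the mean of each group. The treatment of reads shared by overlapping genes is not stated in the sources used here, so this level is uncertain.

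Genes of mitotic entry and exit were positive in 20 of 21 cases (median 0.261), 7 without overlap (33.3%, against 6.26% of all genes). BORA, the cofactor with which Aurora A activates PLK1, was at 21.9, 24.1 and 22.5 CPM in SG1 and 14.5, 14.1 and 15.6 CPM in SG3, against 13.2, 13.9 and 18.9 CPM in CTRL. Its log2 difference was 0.63 ± 0.17 (SE; edgeR adjusted p = 0.861). TOP2A, which untangles sister chromatids, was at 1328, 1440 and 1093 CPM in SG1 and 1002, 863 and 969 CPM in SG3. CCNB1, the cyclin of mitotic entry, and CDK1, its kinase, had log2 differences of 0.42 and 0.40, and the proliferation marker MKI67 had 0.36, all 3 without overlap. FOXM1 and MYBL2, transcription factors of late cell cycle genes, had 0.073 and 0.089 and overlapped, and PKMYT1, an inhibitor of CDK1, was at -0.25.

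The central spindle and chromosomal passenger genes, whose products act beside KIF20A, were positive in 17 of 17 cases (median 0.211, or 0.124 without SG3 replicate 1). Among them 3 genes were higher without overlap (17.6%, against 6.26% of all genes). These were ECT2, the RhoA activator recruited by centralspindlin, at 341, 397 and 303 CPM in SG1 and 279, 219 and 239 CPM in SG3, and ANLN, the ring scaffold anillin, at 973, 1184 and 817 CPM and 734, 678 and 683 CPM. CEP55, an abscission protein whose promoter is printed above, had a log2 difference of 0.41. The passenger subunits AURKB, INCENP and BIRC5 had log2 differences of 0.12, 0.10 and 0.13 with overlapping libraries. In each of them SG3 replicate 1 was the lowest SG3 library. AURKB was at 91.9, 81.5 and 87.9 CPM in SG1 and 57.9, 88 and 94.2 CPM in SG3. INCENP was at 98.3, 162 and 149 CPM in SG3 and BIRC5 at 133, 193 and 191 CPM, against means of 147 and 189 CPM in SG1. The midzone bundler PRC1 was counted at 1.02 CPM or less in every library, a level that is uncertain under the same limit as that of NUSAP1. ARHGEF10, the remaining member, did not pass the filter, with at most 3 counts in a library.

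**Figure D2:**
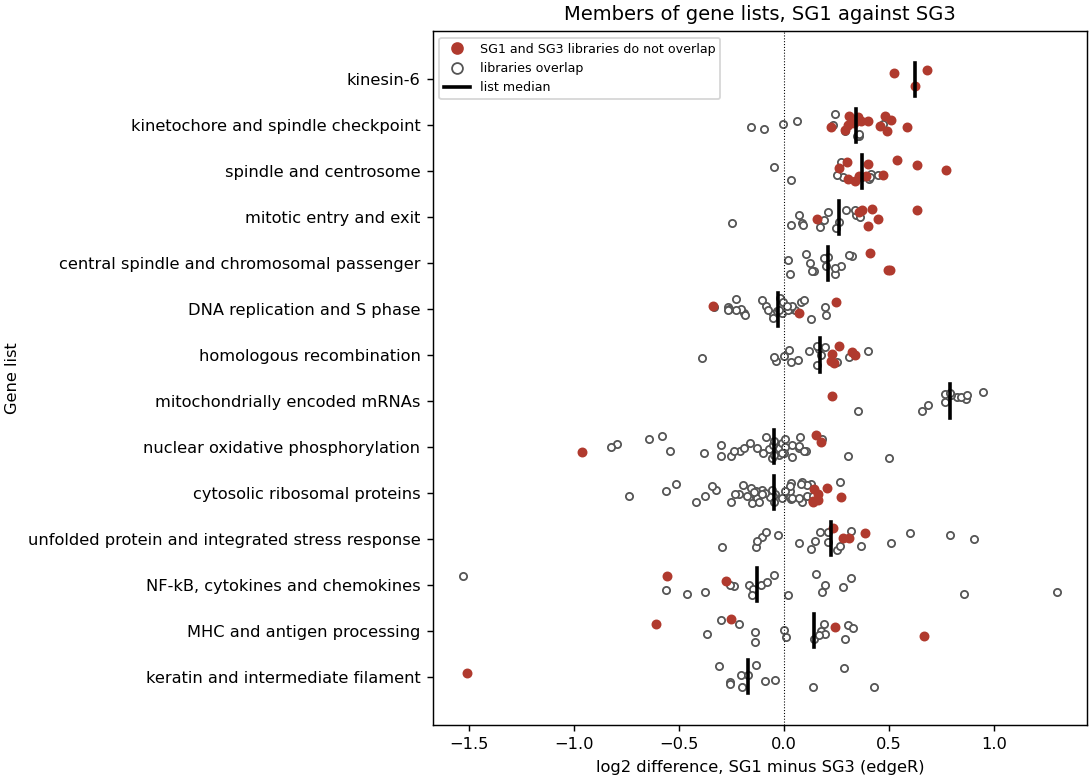
Log2 difference between SG1 and SG3 (horizontal axis, edgeR) for each tested member of 14 gene lists (rows), with filled points where the 3 SG1 and 3 SG3 libraries do not overlap and a bar at the list median. The kinesin-6 and 4 mitotic lists sit to the right of 0, with medians of 0.211 to 0.626, and the DNA replication, oxidative phosphorylation and ribosomal protein lists straddle it.

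Base composition moved with the comparison. GC content was taken over all annotated transcripts of a gene pooled, so that exons shared by several transcripts count more than once. Across tested genes the log2 difference had a Spearman correlation of -0.474 with this GC content, a description over genes that share libraries. By quartile of GC content, from lowest to highest, the median difference was 0.162, 0.0762, -0.0461 and -0.179. Of all genes 81.1%, 64.7%, 41.2% and 20.7% were positive in these quartiles. Mitotic genes were positive in 41 of 41, 19 of 19, 10 of 13 and 8 of 10 cases in the same quartiles, with medians of 0.40, 0.263, 0.133 and 0.0866. Centred on all genes of the same GC decile, the medians became 0.18 for kinetochore genes, 0.22 for spindle genes, 0.22 for mitotic entry and exit, 0.24 for the central spindle and 0.47 for kinesin-6. The gap between the lowest and highest GC quartile within a library was 0.15, 0.26 and 0.19 on the log2 scale in SG1, 0.33, -0.38 and -0.28 in SG3, and -0.31, -0.26 and 0.33 in CTRL. SG3 replicate 1 and CTRL replicate 3 thus lay on the side of SG1. Chromosome medians of coding genes ran with it, from -0.13 on the GC-rich chromosome 19 to 0.14 on chromosome 13, the mitochondrial genome aside. The part of base composition in the results was not tested beyond this centring.

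**Figure D3:**
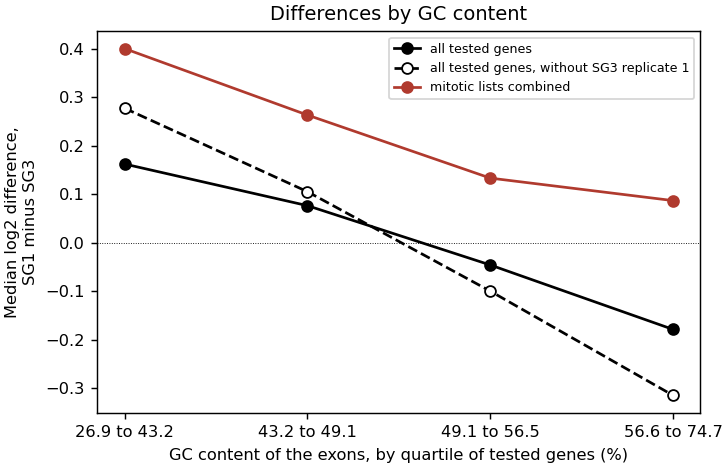
Median log2 difference between SG1 and SG3 (vertical axis) in 4 quartiles of GC content (horizontal axis, %). GC content is that of each gene's pooled transcripts, although the axis names the exons. Lines show all tested genes with and without SG3 replicate 1 and the mitotic lists. All-gene medians run from 0.162 down to -0.179, mitotic medians from 0.40 to 0.0866, and the mitotic line lies above the all-gene line in each quartile.

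Without SG3 replicate 1, 24.2% of all tested genes were higher and 21% lower without overlap between 3 and 2 libraries. Separation of 3 from 2 libraries is easier to reach than of 3 from 3. These shares are therefore not comparable with the 6.26% and 4.55% found with all libraries, and serve only as the background at this setting. Against that background, 48 of the 83 mitotic genes were higher and 5 lower, and their median difference was 0.289.

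Genes of DNA replication, the phase before mitosis, had a median near that of all genes when no library was left out. Of 32 DNA replication and S phase genes 12 were positive (median -0.0283). Without overlap, 2 were higher (6.25%) and 1 lower (3.12%), against 6.26% and 4.55% of all genes. The median was -0.118 without SG3 replicate 1, with 6 higher and 14 lower without overlap, against 24.2% and 21% of all genes. CCNE1, the cyclin of S phase entry, was at 19.5, 19 and 21.4 CPM in SG1 and 26.9, 23 and 25.7 CPM in SG3, against 22.2 to 25.4 CPM in CTRL (log2 difference -0.34 ± 0.15, SE). UHRF1, which maintains DNA methylation, was at 198, 213 and 201 CPM in SG1 and 185, 288 and 299 CPM in SG3, so that SG3 replicate 1 lay below SG1 and the others above it. Homologous recombination genes were positive in 19 of 22 cases (median 0.171), 6 without overlap (27.3%, against 6.26% of all genes). Their median centred on GC was 0.05. Their uncentred median was 0.256 without SG3 replicate 1, with 16 higher and 1 lower without overlap, beside the same shares of all genes. BRCA2, a mediator of strand exchange, was at 39.1, 52.3 and 50.4 CPM in SG1 and 40.9, 30.5 and 36 CPM in SG3, which overlapped, while FANCI, of the Fanconi crosslink repair pathway, was at 143 to 152 and 113 to 136 CPM, which did not.

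Mitochondrially encoded mRNAs, which serve here as a sign of library composition, had a higher mean share of counts in SG1, with overlapping libraries. All 13 were positive (median 0.793), and MT-ND3, at 0.23, was the 1 without overlap. MT-CO2, a subunit of cytochrome oxidase, was at 3018, 2231 and 3997 CPM in SG1, 2576, 1587 and 1264 CPM in SG3 and 2859, 1565 and 1531 CPM in CTRL. MT-CYB, of complex III, was at 1330, 819 and 2134 CPM in SG1 and 1059, 600 and 560 CPM in SG3. Mitochondrially encoded genes took 2.48%, 1.7% and 3.82% of counts in SG1, 2.33%, 1.41% and 1.13% in SG3 and 2.84%, 1.34% and 1.13% in CTRL (exact two-sided permutation p = 0.2 between SG1 and SG3, n = 3 each). The mean share differed by 1.05 percentage points, or by 0.468 without SG1 replicate 3, the library with the highest share. Without SG3 replicate 1 the median log2 difference was 1.12, and 12 of the 13 were higher without overlap, against 24.2% of all genes. With the mitochondrially encoded genes left out before scaling, the mitotic median was 0.28, the difference of KIF20A was 0.66, 0 genes passed edgeR's test and 817 had an unadjusted p under 0.05.

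The nuclear genes of the same pathway, and the ribosomal protein genes, had medians near 0. Of 41 nuclear oxidative phosphorylation genes 15 were positive (median -0.0494), with 2 higher (4.88%) and 1 lower (2.44%) without overlap. Of 53 cytosolic ribosomal protein genes 24 were positive (median -0.0465), with 7 higher (13.2%) and 0 lower. The shares of all genes were 6.26% higher and 4.55% lower. In both lists the widest differences followed SG3 replicates 2 and 3. COX8A, a small subunit of cytochrome oxidase, was at 42.4, 43.3 and 33.3 CPM in SG1, 35.7, 84.3 and 86.4 CPM in SG3 and 76.6, 68.3 and 45.6 CPM in CTRL. RPL36, of the large ribosomal subunit, was at 144, 141 and 126 CPM in SG1 and 116, 287 and 284 CPM in SG3, and RPS2, of the small subunit, at 703 to 727 CPM in SG1 and 635, 1242 and 1276 CPM in SG3. NDUFB8, of complex I, was at 1.29 to 1.58 CPM in SG1 and 1.77, 3.47 and 3.3 CPM in SG3, without overlap. Ribosomal protein genes have many processed pseudogenes, and the assignment of shared reads is not stated in the sources used here. Without SG3 replicate 1 the medians were -0.148 and -0.171, with 19 and 29 members lower without overlap, against 21% of all genes.

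Of 19 transcripts lacking a poly(A) tail, a list of library type, 5 were tested and all 5 were negative (median -0.431). RN7SL1, the RNA of the signal recognition particle, was at 4.59, 2.91 and 1.73 CPM in SG1 and 2.17, 8.24 and 9.76 CPM in SG3, and the linker histone gene H1-2 at 7.04 to 13.2 and 12.2 to 14.1 CPM. Both overlapped.

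**Figure D4:**
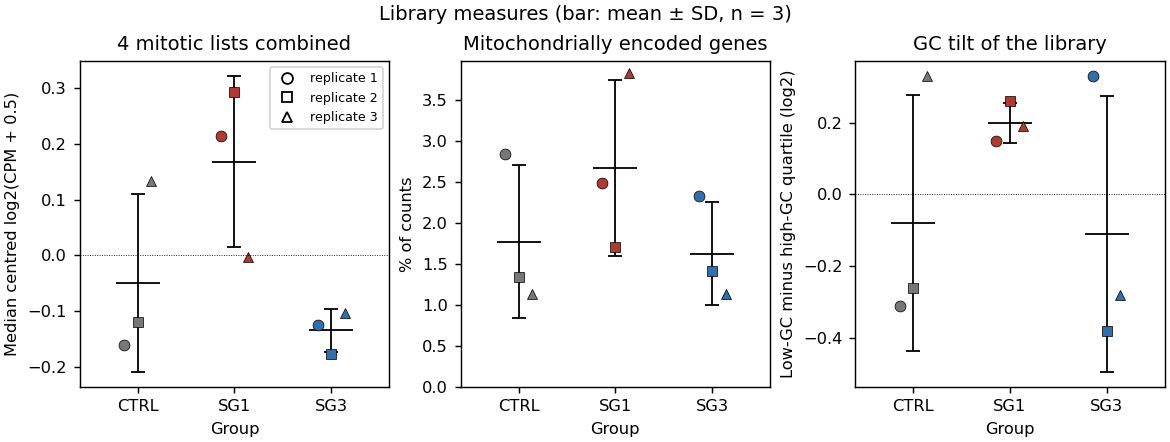
Per-library values of the mitotic score (left, log2), the share of counts from mitochondrially encoded genes (middle, %) and the GC gap (right, log2) in CTRL, SG1 and SG3, with the mean and SD as bars. The mitotic score separates SG1 from SG3, at -0.00326 to 0.294 against -0.177 to -0.103, while the mitochondrial share overlaps and SG3 replicate 1 lies apart from its group on the GC gap.

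Outside the mitotic lists the leading genes in SG1 relative to SG3 were of mixed function. MANCR (chromosome 10, 4650185 to 4678154, minus strand), the mitotically associated long non-coding RNA, was at 20.3, 15.1 and 22.3 CPM in SG1, 8.86, 8.82 and 9.93 CPM in SG3 and 13.3, 15 and 14 CPM in CTRL. The groups were separate, with CTRL between them, and its log2 difference of 1.07 ± 0.18 (SE) had the lowest edgeR adjusted p of all genes, 0.498. FAM133A was at 12.4 to 12.5 CPM in all SG1 libraries and 6.55, 4.98 and 5.76 CPM in SG3, against 5.43 to 9.54 CPM in CTRL (log2 difference 1.11 ± 0.22, SE). HLA-DRA, the alpha chain of HLA-DR, was at 88.2, 103 and 75.8 CPM in SG1 and 48.6, 57.9 and 61.7 CPM in SG3, on either side of CTRL at 63.6 to 66.4 CPM.

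The other leading genes in this direction had smaller differences. TM4SF1, a tetraspanin-like surface protein, was at 95.2 to 112 CPM in SG1 and 66.9 to 72.7 CPM in SG3 (0.55). IGFBP1, a secreted binder of insulin-like growth factors, was at 15.1 to 17.8 CPM and 6.23 to 11.1 CPM (0.82), with SG3 replicate 1 lowest. ADGRF1, an adhesion G protein-coupled receptor, was at 133 to 171 CPM and 79.2 to 115 CPM (0.57), and RBM12, an RNA-binding protein, at 137 to 181 CPM and 104 to 123 CPM (0.52). KIF20A, KIF23, ASPM, BORA and NUF2 completed the 12 by rank. GC content in these 12 genes ran from 34.6% in FAM133A to 50.5% in IGFBP1.

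The 12 leading genes in the lower direction could hold no mitotic list member, because 0 mitotic genes were lower without overlap. KRT81 (chromosome 12, 52285913 to 52291534, minus strand), a hair-type keratin, was at 6.41, 6.84 and 6.66 CPM in SG1, 8.42, 28.6 and 19.9 CPM in SG3 and 10.2, 13.4 and 12.6 CPM in CTRL. The SG1 libraries were nearly equal, and the difference of -1.51 ± 0.32 (SE, log2) came mainly from SG3 replicates 2 and 3. KRT81 has close relatives among the type II hair keratins, so its counts are uncertain. JUNB, a subunit of the AP-1 transcription factor, was at 21.6, 21.2 and 21.1 CPM in SG1 and 33.5, 35.9 and 34.4 CPM in SG3, against 41, 35 and 23.1 CPM in CTRL (-0.70 ± 0.18, SE). IFI6, an interferon-stimulated gene, was at 5.88, 5.37 and 4.62 CPM in SG1 and 9.2, 8.58 and 8.39 CPM in SG3, with CTRL between at 6.97 to 7.3 CPM (-0.72 ± 0.18, SE). For JUNB and IFI6 the 3 SG3 libraries lay close together.

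Among the rest, ODAPH was at 3.54 to 4.17 CPM in SG1 and 6.56 to 8.63 CPM in SG3 (log2 difference -0.95). HAPLN3, a link protein of hyaluronan matrix, was at 2.92 to 3.27 and 5.14 to 7.32 CPM (-1.0), and RILP, a RAB7 effector of lysosome transport, at 4.14 to 5.54 and 7.01 to 11.4 CPM (-0.98). ADM, the peptide adrenomedullin, was at 9.86 to 16.2 and 18.5 to 25.3 CPM (-0.72). SAA2, an acute phase protein, was at 43.4 to 64.9 and 77.3 to 79 CPM (-0.56), and its near-identical neighbour SAA1 is described below. RRAD, a small GTPase of the RAS superfamily, was at 7.63 to 10.4 CPM in SG1 and 25.7, 12.7 and 14.5 CPM in SG3 (-0.94), with SG3 replicate 1 highest. FRAT2, a GSK3 binding protein, PHETA1 and MCRIP1 had differences of -0.70, -0.63 and -0.96. GC content in the 12 leading lower genes was 42.1% in ODAPH, 49.6% in SAA2 and 56.2% to 65% in the rest. The leading genes of both directions thus lay along the GC gradient described above, and its part in their ranks was not tested.

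**Figure D5:**
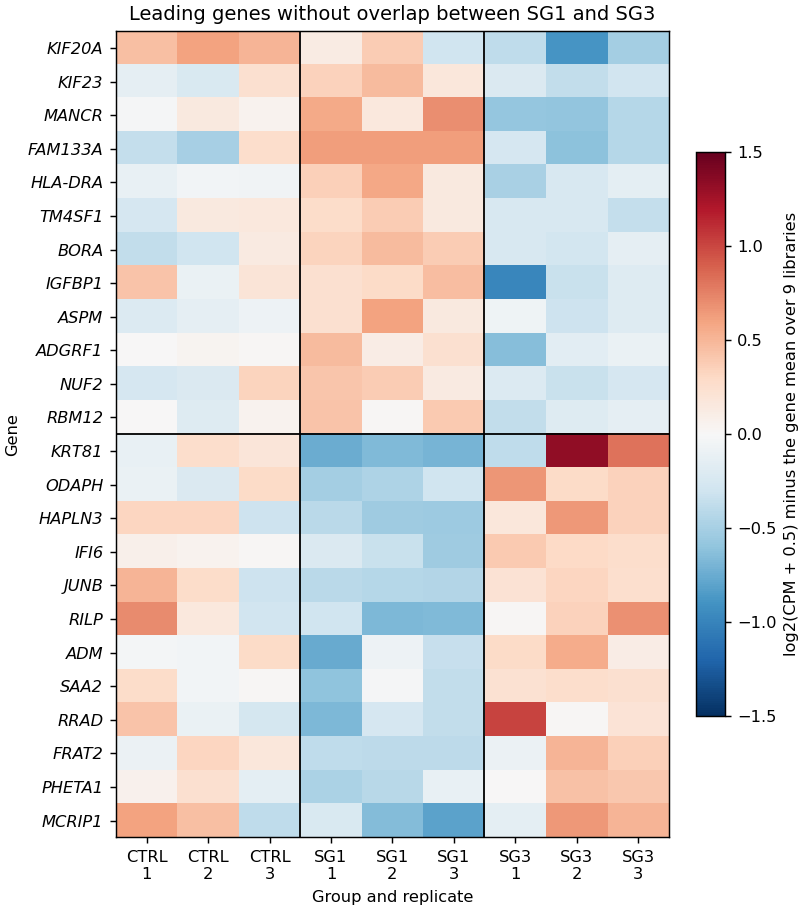
Log2(CPM + 0.5) minus each gene's mean over 9 libraries (colour) for the 12 leading genes higher and the 12 leading genes lower in SG1 (rows) in the CTRL, SG1 and SG3 libraries (columns). SG1 columns are uniform in most rows, CTRL replicate 3 often resembles SG1, and KRT81 is highest in SG3 replicates 2 and 3, at 28.6 and 19.9 CPM.

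DESeq2 called 5 genes on the same 9 libraries. MANCR (adjusted p = 0.000265) and FAM133A (0.00517) were higher, 0.0119% of genes tested, and KRT81 (0.00517), HCN4 (0.0113) and ODAPH (0.0388) were lower, 0.0179%. HCN4, a pacemaker channel of the heart, was at 0.674, 1.02 and 1.15 CPM in SG1 and 2.97, 3.07 and 2.84 CPM in SG3, against 1.46, 3.2 and 1.61 CPM in CTRL. Without SG3 replicate 1 edgeR called 5 genes, all lower in SG1 (0.029% of genes tested), a set taken after its values were seen. They were KRT81 (adjusted p = 0.00389), SAA1, GPX1, POLR2L and BEX3 (0.0374 each). GPX1, a glutathione peroxidase, was at 196, 186 and 173 CPM in SG1 and 156, 344 and 333 CPM in SG3, and POLR2L, a small subunit shared by RNA polymerases, at 57.1 to 68.2 CPM and 52, 130 and 136 CPM. BEX3 was at 51.3 to 55.4 CPM and 41.1, 99.4 and 95.8 CPM. In these 3 genes SG3 replicate 1 lay below every SG1 library and SG3 replicates 2 and 3 lay above them.

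The same split shaped the genes in which SG3 replicate 1 departed most from its group. SAA1 was at 126, 480 and 497 CPM in SG3, 113 to 146 CPM in SG1 and 399, 351 and 158 CPM in CTRL. SNHG32, a snoRNA host gene, was at 2.95, 22.8 and 23.2 CPM in SG3 and 4.84 to 5.56 CPM in SG1, and in CTRL replicates 1 to 3 it was at 19.5, 18.4 and 4.33 CPM. NEDD8, a ubiquitin-like protein, was at 0.914, 9.26 and 8.89 CPM in SG3 and 1.51 to 2.11 CPM in SG1. MRPL12, of the mitochondrial ribosome, ATP5IF1, the ATP synthase inhibitor, and FAM207A had the same order, with 3.07, 11.2 and 7.39 CPM in SG3 replicate 1 and at least 15, 44.3 and 29.6 CPM in the other SG3 libraries. In each of these 6 genes SG1 and SG3 replicate 1 lay with CTRL replicate 3, and SG3 replicates 2 and 3 with CTRL replicates 1 and 2.

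In 5 other genes, taken for this difference, SG3 replicate 1 lay above both other SG3 libraries. CSF2, the cytokine GM-CSF, was at 84.2, 20.1 and 20.2 CPM in SG3 and 24, 19.7 and 46.9 CPM in SG1. EGR1, an immediate early transcription factor, was at 53.6, 10.9 and 16.2 CPM in SG3 and 57.9, 19 and 74.5 CPM in SG1, and CSF3, the cytokine G-CSF, at 26, 6.77 and 8.73 CPM and 19.2, 4.14 and 37.8 CPM. SLC43A2, an amino acid transporter, was at 28.3 CPM in SG3 replicate 1 and at most 13.7 CPM in the other libraries, and TCP11L2 at 9.58 CPM against at most 4.8 CPM.

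Inflammatory and immune lists held no common direction. NF-kB, cytokine and chemokine genes were positive in 8 of 22 cases (median -0.128), and the median was 0.398 without SG3 replicate 1. With all libraries 0 were higher and 2 lower without overlap (9.09% lower, against 4.55% of all genes). Besides SAA2 the second of these was NFKB2, a subunit of NF-kB, at -0.28. Immediate early and AP-1 genes were positive in 13 of 23 cases (median 0.0394), with JUNB the 1 without overlap, and CCN1, a matricellular protein, at 1005 to 1267 and 1121 to 1384 CPM. Interferon-stimulated genes were positive in 10 of 25 cases (median -0.0861), where IFITM1, a restriction factor, was at 4.31 to 5.16 CPM in SG1 and 2.53 to 4.05 CPM in SG3, opposite to IFI6. MHC and antigen processing genes were positive in 12 of 19 cases (median 0.144, -0.109 without SG3 replicate 1). HLA-DRA and CIITA, the activator of class II genes, were higher without overlap, at 0.67 and 0.24, and the peptide transporter genes TAP2 and TAP1 lower, at -0.61 and -0.25. Each direction thus held 10.5% of the list, against 6.26% of all genes higher and 4.55% lower. TAP2 was at 5.06 to 5.63 CPM in SG1 and 5.98, 8.92 and 9.16 CPM in SG3.

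Genes of the unfolded protein and integrated stress responses were positive in 18 of 24 cases (median 0.224), against 51.9% of all genes, with 4 higher and 0 lower without overlap, against 6.26% and 4.55%. The list's library scores overlapped, at 0.0798, -0.16 and 0.134 in SG1 and -0.291, -0.0896 and -0.111 in SG3. The 4 were the endoplasmic reticulum chaperones HSPA5 (0.24) and HSP90B1 (0.39) and the transcription factors XBP1 (0.28) and CEBPG (0.31). HSP90B1 was at 1091, 1265 and 985 CPM in SG1, 935, 828 and 793 CPM in SG3 and 914, 912 and 1402 CPM in CTRL. SLC7A11, the cystine transporter, had a wider difference (0.91 ± 0.27, SE) but overlapped, at 121, 53.3 and 136 CPM in SG1 and 42.1, 53.9 and 69.6 CPM in SG3, with SG1 replicate 2 inside the SG3 range. Targets of p53 were positive in 7 of 19 cases (median -0.091). PHLDA3, an inhibitor of AKT, was the 1 without overlap, at 11.7 to 12.7 CPM in SG1 and 14.3, 27.8 and 23.4 CPM in SG3, and PLK2, a polo-like kinase, was at 345 to 508 and 303 to 362 CPM.

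Metabolic lists lay near the median of all genes. Cholesterol genes were positive in 10 of 22 cases (median -0.00557) with 0 members without overlap. Without SG3 replicate 1, 6 were higher and 8 lower without overlap, against 24.2% and 21% of all genes. The cholesterol list included CYP51A1, a sterol demethylase, at 1.45 to 1.8 CPM in SG1 and 1.41 to 3.98 CPM in SG3. It also included MVD, of the mevalonate pathway, at 11.2 to 15 and 11.9 to 20.4 CPM. Fatty acid genes were positive in 7 of 17 cases (median -0.0157). Among them ELOVL6, a fatty acid elongase, was higher without overlap (264 to 321 and 207 to 246 CPM) and ACSS2, an acetyl-CoA synthetase, lower (41 to 51.2 and 51.3 to 54.1 CPM). Hypoxia and glycolysis genes were positive in 11 of 18 cases (median 0.0618), with HK2, a hexokinase, higher at 0.19 and ADM lower, both without overlap, and BNIP3, a mitophagy receptor, overlapping at 274 to 460 and 231 to 318 CPM.

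Lists of adhesion and cell shape had medians from -0.169 to 0.0829. Matrix and protease genes were positive in 13 of 23 cases (median 0.0392), and LAMA3, a laminin chain, was the 1 without overlap, at 0.35. LOX, a collagen crosslinking enzyme, was at 63.7 to 102 CPM in SG1 and 48.4 to 72.4 CPM in SG3, and PLAU, the urokinase, at 210 to 305 and 298 to 356 CPM. Epithelial-mesenchymal transition and junction genes were positive in 11 of 18 cases (median 0.0829). VIM, the mesenchymal filament vimentin, was at 770, 720 and 679 CPM in SG1, 608, 543 and 536 CPM in SG3 and 558, 681 and 816 CPM in CTRL (log2 difference 0.36 ± 0.15, SE), and ZEB1, a repressor of epithelial genes, was at 75.8 to 85.4 and 58.8 to 78.5 CPM. Keratin and intermediate filament genes were positive in 3 of 13 cases (median -0.169, -0.337 without SG3 replicate 1), and LMNB1, a nuclear lamin, was among the 3, at 215 to 279 and 182 to 220 CPM. YAP/TEAD targets were positive in 6 of 16 cases (median -0.104), with ANKRD1 lower without overlap (130 to 186 and 192 to 200 CPM) and WWTR1, the coactivator TAZ, at 87.7 to 112 and 74.9 to 102 CPM.

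Markers of other cell types gave similar summed levels in both groups. Luminal markers summed to 889 to 1215 CPM in SG1 and 870 to 1384 CPM in SG3, most of it from keratins that this line expresses, such as KRT8 at 476 to 702 and 485 to 868 CPM, and 2 of 15 were at 0 in all libraries. The median log2 difference of the tested luminal markers was 0.0547, or -0.107 without SG3 replicate 1. Fibroblast markers summed to 34.8 to 65.3 and 40.7 to 62 CPM, with DCN at 0. Here PDGFRB, at 9.66 to 11.4 and 13.3 to 17.7 CPM, and C1S, at 0.911 to 1.35 and 1.83 to 3.24 CPM, were lower in SG1 without overlap. They were 2 of the 6 fibroblast markers tested (33.3%), against 4.55% of all genes. Leukocyte markers summed to 13.5 to 18.3 and 13.6 to 17.9 CPM, with 4 of 13 at 0, CSF1R at 4.73 to 11.2 and 6.07 to 8.95 CPM, and CD8A at 1.05 to 2.18 and 1.26 to 2.3 CPM. Endothelial markers summed to 16.8 to 33.1 and 17.9 to 35 CPM, with TEK at most 0.492 CPM and PECAM1 at most 3.07 CPM, and the median log2 difference of those tested was -0.101, or 0.141 without SG3 replicate 1. Genes associated with MDA-MB231 summed to 7111 to 8422 and 7156 to 7634 CPM, and of these ANXA1, a phospholipid-binding protein, was higher in SG1 without overlap (616 to 671 and 461 to 504 CPM).

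With 3 libraries a group, the median 95% interval of a log2 difference reached 0.44 to either side, so differences the size of the mitotic medians lay within the interval of a typical single gene. Of the 16786 genes, 795 had an unadjusted edgeR p under 0.05 and 0 passed after adjustment. In 11 genes the 3 CTRL libraries fell between SG1 and SG3 with no overlap of the 3 groups, 5 with SG1 highest (0.0298% of genes tested) and 6 with SG3 highest (0.0357%).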

How the data were processed

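RNA of MDA-MB231 cells was extracted with an RNeasy kit, per the labels' protocols. The authors deposited raw counts per gene for the CTRL, SG1 and SG3 libraries, which per the labels form one of 2 datasets, and the overexpression dataset was not used here. The values were whole numbers with no rows lacking a gene name. Among counts of 10 to 50, 62.9 to 68% per library were even, and the reason was not given in the sources used here. Build hg38 is named, per the submitters' processing notes, with STAR 2.7.3a, Trim Galore 0.6.4, Subread 1.6.3, featureCounts and limma 3.50.3. For the annotation, the strand setting and the treatment of reads shared by paralogs or overlapping genes, the sources used here give nothing. GENCODE 29 on GRCh38 matched 96.3% of gene identifiers and gave coordinates, exon length and GC content (98.9% of tested genes).

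SG1 was compared with SG3 by edgeR 4.0.16 in R 4.3.3, using its quasi-likelihood test on the counts (TMM scaling, default expression filter, no robust moderation) in 1 fit of the 9 libraries, contrast SG1 minus SG3, with Benjamini-Hochberg adjustment over all tested genes and a threshold of 0.05. CTRL added to the estimate of spread. DESeq2 1.42.0, limma-voom in limma 3.58.1, other filters and scalings, and libraries left out were alternatives. A fit with robust moderation was tried first on these data and replaced, and its values are given as an alternative. The edgeR function was tested on simulated data. Library scores and centred levels used log2(CPM + 0.5), and exact permutation tests were two-sided. For a gene without counts the floor was 3 counts, or 0.0588 to 0.0734 CPM per library, which covers counting error only because the reads carried no molecular identifiers. It takes counts as independent, which the share of even values puts in doubt, so the floor may be too low. With all counts halved, 0 genes passed edgeR's test and the log2 difference of KIF20A was 0.67.

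Samples were grouped by their titles. Gene lists, 29 in all, and the comparison itself were chosen with earlier results of these data known. Lists are described by counts and medians beside all genes. Named genes were the kinesin-6 genes, the 12 with the smallest unadjusted p in each direction among those without overlap at 5 CPM or more in the higher group, 2 members per list with the smallest p, DESeq2 calls, and 6 genes in each direction that set SG3 replicate 1 apart, of which 1 is not reported here. Other named list members, the markers VIM, CD44, ESR1 and PTPRC, the GC centring and the level of KIF20A relative to mitotic lists were chosen after values were seen. The 5 promoters were the first by rank, kinesin-6 genes first, with no GENCODE exon in the 120 bases, a rule set after promoters had been viewed.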

Additional observations from a re-analysis of the deposited data

Results flagged for a closer look

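In 11 genes every SG1 library lay on one side of every CTRL library and every SG3 library on the other. They were 0.0298% of genes tested with SG1 highest and 0.0357% with SG3 highest. Whether these shares exceed those of a random order of the libraries was not tested. The contrast of SG1 with SG3 is the direct test of the difference between the 2 groups. None of the 11 passed it in edgeR (adjusted p = 0.498 for MANCR and 0.861 for the others). Their position on opposite sides of CTRL was not tested otherwise. Both groups share the CTRL libraries. The log2 differences with SG1 highest were 1.07 for MANCR, 0.67 for HLA-DRA, 0.57 for ADGRF1, 0.44 for ARHGAP11A, a GTPase-activating protein of RHOA, and 0.39 for PHKB, a subunit of phosphorylase kinase. With SG3 highest they were -1.98 for IL2RB, -1.33 for AL137077.2, -0.95 for ODAPH, -0.72 for IFI6, -0.44 for SERTAD1 and -0.34 for C7orf26.

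ARHGAP11A was at 40.8, 50.1 and 34.5 CPM in SG1, 32.7 to 33.5 CPM in CTRL and 30.3 to 31.3 CPM in SG3, so that SG1 replicate 3 lay close to CTRL. PHKB was at 62.3 to 69, 53.1 to 59.5 and 49.2 to 51.1 CPM in the same order of groups. SERTAD1, a transcriptional regulator, was at 12.4 to 13.3, 15.9 to 16.8 and 16.9 to 17.8 CPM, and C7orf26 at 28.7 to 30.4, 32 to 35 and 35.1 to 40.7 CPM. IL2RB and AL137077.2 were at most 0.434 CPM in every library, where a few counts set the level.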

How the results depend on the processing

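The log2 difference of KIF20A lay between 0.49 and 0.85 with a library left out and kept its sign in all 21 alternatives. It passed the threshold in 2, edgeR without a low-count filter (0.64, adjusted p = 0.0261) and limma-voom with quality weights (0.75, adjusted p = 0.0161), and its adjusted p over the alternatives ran from 0.0161 to 1. Because the pair of groups was proposed for its difference in KIF20A, these values describe the processing only and give no independent support. The median of the mitotic lists ran from 0.20 to 0.38 with a library left out and was 0.29 centred on exon length and 0.22 centred on GC content. The difference in mitochondrial share was 0.468 to 1.531 percentage points with a library left out. The cause of the following changes was not tested. Calls numbered 77 without a low-count filter (23 higher, 54 lower), 5 in DESeq2, 1687 in limma-voom with quality weights (796 higher, 891 lower) and 0 to 5 with a library left out, the 5 without SG3 replicate 1. Robust moderation gave 0 calls with all libraries and 20, all lower, without SG3 replicate 1. Genes at an unadjusted p under 0.05 numbered 1587 without a low-count filter, 5108 with quality weights, 3122 with robust moderation and without SG3 replicate 1, and 372 to 3080 with a library left out, at 3080 without SG3 replicate 1, 372 without SG3 replicate 2 and 422 without SG3 replicate 3.

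Among the 90 named genes other than KIF20A that were followed here, signs turned in 7, all with overlapping libraries. None of the 7 passed in the alternatives that turned it. Other named list members were not in this count, and their signs can also rest on SG3 replicate 1. FOXM1, for example, was at 182, 184 and 166 CPM in SG1, below 186 CPM in both SG3 replicate 2 and SG3 replicate 3. With a library left out, the log2 difference ran from -0.93 to 0.55 for CSF2, -1.11 to 0.21 for SLC43A2, -0.68 to 0.61 for TCP11L2 and -0.68 to 0.14 for PECAM1, with the highest value in each case without SG3 replicate 1, also under robust moderation. The range was -0.57 to 0.11 for CSF1R, which turned without SG1 replicate 2 (0.11) or 3 (0.04), -0.45 to 0.18 for CD8A, which turned without SG1 replicate 1 (0.07) or SG3 replicate 2 (0.18), and -0.25 to 1.37 for CSF3, which turned without SG1 replicate 3. With quality weights CSF2 was at 0.30, SLC43A2 at 0.13, TCP11L2 at 0.61, PECAM1 at 0.15 and CSF1R at 0.09. Of 1872 values for the 90 named genes other than KIF20A, these 7 included, 1743 kept both sign and side of the threshold, 111 passed the threshold and 18 turned. Of 666 values for the medians of the other lists 637 moved by less than the spread of library scores within groups, but 16 of these 29 medians turned sign in at least 1 alternative. Without SG3 replicate 1 these included the NF-kB list (0.40), MHC (-0.11), luminal markers (-0.11) and endothelial markers (0.14).

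Same-numbered SG1 and SG3 libraries did not deviate together from their group means over all tested genes. Their deviations had correlations of -0.0329, -0.0478 and -0.0107, against -0.0477 to 0.0955 for differently numbered libraries. These values cannot show whether the numbers mark shared cultures or batches, because deviations within a group of 3 depend on each other. The labels do not say what the numbers mean. A replicate block left 0 calls, 637 genes at an unadjusted p under 0.05 and KIF20A at 0.67. With 3 libraries a group and totals of 40.9 to 51 M counts, the spread between replicates rather than counting limited the precision for genes above a few CPM.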
